A study of Mus musculus with 15 samples.

Results

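The genes described here are 10 transcription factors of the endocrine commitment cascade of the mouse pancreas, out of 25292 genes in the deposited count table. They were named by their known role in the cascade. Neurog3, Pax4, Insm1, Neurod1, Myt1, Nkx2-2 and Rfx6 were taken as early steps, and Fev, Pax6 and Isl1 as late steps. RNA was sequenced from 15 libraries of embryonic pancreas of strain C57/Bl6J in 5 groups of 3. Wild-type pancreata (wt) and pancreata labelled S1pr2 null were taken at 14.5 days post coitum (dpc), and S1pr2 is a receptor for the signalling lipid sphingosine-1-phosphate. The other libraries came from explants of that stage, dorsal buds according to the methods of the study, kept for 2 days on filters at an air-liquid interface. They were left in standard medium (control), or given 15 μM JTE013, an antagonist of S1pr2 (JTE), or given 15 μM JTE013 with 50 ng/ml connective tissue growth factor (JTE with CTGF). Each library pooled up to 3 pancreata or explants, and the null allele was described by the study as a disruption of exon 1 by a Neo cassette.

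Endocrine cells of the pancreas arise from a ductal epithelium in which scattered progenitors switch on Neurog3, a basic helix-loop-helix factor that commits them to an islet fate. Neurog3 is present for a short time only. It turns on factors such as Neurod1, Insm1, Pax4, Nkx2-2 and Rfx6, cells then pass through a state marked by Fev, and Pax6 and Isl1 are carried into hormone cells. Notch signals between neighbouring progenitors hold Neurog3 down through the repressor Hes1.

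RNA counts of the targeted gene were not lower in the libraries labelled S1pr2 null. S1pr2 had 858, 796 and 812 reads in the wt libraries and 1486, 1368 and 1609 reads in the libraries labelled S1pr2 null, a log2 fold change of 0.83 ± 0.07 (SE, adjusted p = 4.5e-07). Counts per gene show neither which exons the reads cover nor how much protein was made. Every direction given for the libraries labelled S1pr2 null therefore rests on that label. Depth was even, from 11402804 to 13828737 reads per library. JTE replicate 3 stood apart. Per gene, its chi-square was 17.2 and 23.2 against JTE replicates 1 and 2, where those 2 gave 3.01 and pairs within the other groups 2.34 to 10.2. Many values that rest on it, but not all, are also given without it, for the gene lists as an alternative chosen after seeing the data. The pancreatic markers Pdx1 (607 to 1607 reads), Ptf1a (357 to 2115 reads) and Cpa1 (10652 to 152152 reads) were present in every library. Neurog3 also acts in the gut, and of the 5 gut markers followed Cdx1, Cdx2 and Tph1 had at most 7 reads in any library. Sox2 had 4 to 30 reads. Vil1 had 30 to 337, with 337, 335 and 295 in control explants and 51, 74 and 47 in JTE. What part gut cells had in the values below was not tested. Insm1, Myt1, Fev and Isl1 are also expressed by neurons. The 11 neuronal and glial markers summed to 2163 to 2295 normalised counts in wt, 1737 to 1780 in the libraries labelled S1pr2 null and 2022 to 2582 over the 9 explant libraries, and the defining noradrenergic marker Dbh had at most 12 reads. Their part in the values below was not tested.

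All 10 genes passed the filter on low counts. Neurog3 (ENSMUSG00000044312) is a protein-coding gene on the forward strand, with exons counted between chr10:62133090-62134763 in mm10, and Rfx6 (ENSMUSG00000019900) lies on the same chromosome at chr10:51677756-51730429. Insm1, Neurod1, Myt1, Nkx2-2 and Pax6 all lie on chromosome 2, as chr2:146221921-146225016, chr2:79452521-79456751, chr2:181763332-181827797, chr2:147177546-147194243 and chr2:105668896-105703160. Pax4 is at chr6:28442334-28449353, Fev at chr1:74881509-74885419 and Isl1 at chr13:116298281-116309688. Exons of Neurog3 share 273 bases with Fam241b and those of Nkx2-2 share 278 bases with Nkx2-2os, both on the other strand. Those of Pax6 share 5542 of 19833 bases with Elp4, also on the other strand. Exons of Neurod1 share 201 bases with Cerkl, which lies on the same strand. Whether the counting used the strand is not given in the sources used here. Of the overlapping genes, Fam241b had 195 to 331 reads, Elp4 232 to 430, Cerkl 8 to 62 and Nkx2-2os 2 to 22. A further limit is sequence shared with other genes, which held 13.34% of the 50-base words of Neurog3 transcripts, 9.66% of those of Neurod1 and 8.04% of those of Nkx2-2, and under 1% in the other 7 genes.

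Promoter sequences of RefSeq (GRCm38.p6) were found for 8 of the 10 genes, with 11 starts in all. Pax4 and Insm1 had no entry. The 250 bases before each start were searched on both strands for the E-box CAGATG, a form bound by Neurog and Neurod factors, for the N-box CACNAG of Hes repressors, and for GGAATG of Tead factors. The 2 upstream sequences below are shown because Neurog3 opens the cascade and because Rfx6 holds the only N-box that lies outside an annotated exon among the 11 starts. The Nkx2-2 stretch holds the only E-box found. Capitals mark a match, read 5′ to 3′ along the strand of the gene.
Neurog3, forward strand, chr10:62132840-62133089: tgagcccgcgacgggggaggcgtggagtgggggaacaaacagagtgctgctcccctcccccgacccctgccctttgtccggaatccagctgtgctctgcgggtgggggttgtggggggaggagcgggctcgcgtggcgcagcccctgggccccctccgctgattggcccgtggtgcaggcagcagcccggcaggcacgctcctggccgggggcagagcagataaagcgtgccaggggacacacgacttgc
Rfx6, forward strand, chr10:51685268-51685517: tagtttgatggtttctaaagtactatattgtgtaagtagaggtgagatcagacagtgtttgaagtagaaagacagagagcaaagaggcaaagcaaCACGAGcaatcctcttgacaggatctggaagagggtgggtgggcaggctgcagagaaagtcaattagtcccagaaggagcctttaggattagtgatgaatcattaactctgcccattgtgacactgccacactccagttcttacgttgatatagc
Nkx2-2, reverse strand, chr2:147186607-147186632: cacaatttcaCATCTGcaaatactgt
CATCTG in the Nkx2-2 stretch is CAGATG read on the other strand, 220 bases before the start. Among all 32851 promoter windows of that length, 14.4% held CAGATG, 36.7% CACNAG and 12.6% GGAATG. The members held CAGATG at 1 of 11 starts, CACNAG at 2 of 11, the other one at a second Pax6 start, and GGAATG at 0 of 11. The starts of Rfx6 and Nkx2-2 lie inside the spans counted, and the stretches shown overlap no annotated exon. These letters describe the windows and were not tested as binding sites.

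In wt pancreata Neurog3 was the most abundant of the 10 transcripts. To compare genes, counts were divided by the exon length in the table and scaled to the same sum in every library (TPM). Neurog3 stood at 356 ± 10.7 TPM (SD, n = 3), Nkx2-2 at 98.3 ± 3.38, Insm1 at 62.2 ± 2.52, Isl1 at 40.3 ± 1.13, Fev at 39.8 ± 2.29, Neurod1 at 29.1 ± 2.65, Pax4 at 25.3 ± 0.882, Rfx6 at 16.7 ± 1.69, Myt1 at 15.3 ± 0.709 and Pax6 at 5.58 ± 0.567. Ranges of neighbours in this order overlapped only for Isl1 with Fev and for Rfx6 with Myt1. The exon length of Pax6 sums all its annotated exons, which lowers its TPM. In control explants the first 3 places, Nkx2-2 (57.6 ± 3.41 TPM), Neurog3 (51.1 ± 5.46) and Insm1 (44.5 ± 2.27), overlapped from one to the next. In JTE and in JTE with CTGF, Insm1 came first at 47.7 ± 1.21 and 46.6 ± 1.13 TPM, above Nkx2-2 without overlap, and Pax4 came last at 2.62 ± 0.66 and 2.24 ± 0.681 TPM.

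**Figure D1:**
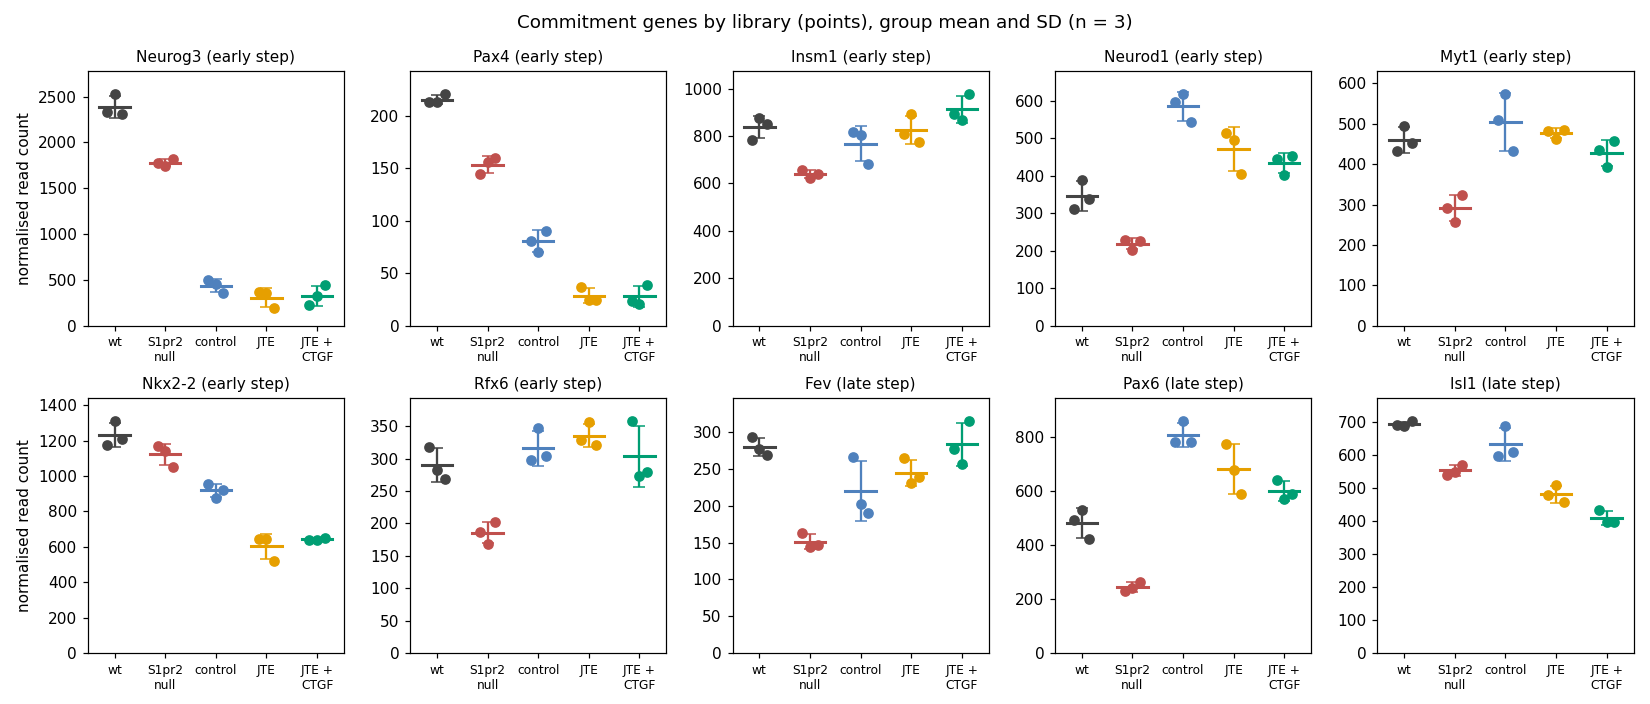
Normalised read count (vertical axis, from 0) of each of the 10 genes in the 15 libraries, as points by group, with the group mean as a bar and the SD as the error bar (3 libraries each). Neurog3 and Pax4 step down from pancreata to explants, Neurod1 and Pax6 step up, and the libraries labelled S1pr2 null lie below wt in every panel.

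The first comparison asked how the cascade stood in pancreata labelled S1pr2 null. Against wt, 8 of the 10 genes were lower and 0 were higher, by the quasi-likelihood test of edgeR at an adjusted p below 0.05. Over all genes tested 13.3% were lower and 12.6% higher. None of the 10 was higher at an unadjusted p under 0.05 or by DESeq2. All 10 genes had lower counts in each of these 3 libraries than in any wt library, a pattern shown by 23.8% of all genes tested. The median log2 fold change was -0.56, against -0.0116 over all genes tested. It was -0.89 for the 3 late genes and -0.49 for the 7 early genes.

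Pax6, which is needed for hormone gene expression, showed the lowest value. It had 494, 530 and 422 normalised counts in wt and 231, 240 and 264 in the libraries labelled S1pr2 null. That is a log2 fold change of -0.97 ± 0.10 (adjusted p = 5.08e-06). Fev, a marker of cells that have left the Neurog3 state, had 294, 277 and 269 counts in wt and 163, 144 and 147 in the others, a log2 fold change of -0.89 ± 0.12 (adjusted p = 3.59e-05). Only these 2 genes also met the criterion of the study, which 1.69% of all genes tested met on the lower side: mean count above 100 in a group, fold below 0.6 or above 1.6, adjusted p no more than 0.1. Isl1, the LIM factor of hormone cells, changed less, from 689 to 702 counts in wt to 540 to 570 (log2 fold change -0.33 ± 0.06, adjusted p = 0.00105).

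Neurog3 itself did not pass the test. Its counts were 2328, 2528 and 2307 in wt and 1779, 1739 and 1819 in the libraries labelled S1pr2 null, with no overlap and a log2 fold change of -0.42 ± 0.17 (adjusted p = 0.0718). The fit shared 1 estimate of the spread with the explants, in which Neurog3 varied more. With only these 6 libraries the log2 fold change was -0.42 and the adjusted p was 7.03e-06, by the same edgeR test. Neurog3 was also called at -0.43 to -0.42 without JTE replicate 3, JTE with CTGF replicate 1 or JTE with CTGF replicate 3. With no filter on low counts edgeR called it too (-0.43, adjusted p = 0.00374). It was not called by DESeq2 (-0.42, adjusted p = 0.255) or without any of the other 12 libraries. Over all 15 fits that left out 1 library its adjusted p ran from 0.011 to 0.192. Nkx2-2, which specifies beta cells, had 1176, 1310 and 1209 counts in wt against 1169, 1144 and 1054, and did not pass either (-0.13 ± 0.07, adjusted p = 0.167). Pax4, a factor of the beta and delta lineage, was lower (-0.49 ± 0.14, adjusted p = 0.0168). So was Insm1, a zinc finger factor of delaminating precursors (-0.39 ± 0.07, adjusted p = 0.000994). The Pax4 call was lost without wt replicate 3 (-0.47, adjusted p = 0.0606) or without replicate 1 of the libraries labelled S1pr2 null (-0.45, adjusted p = 0.0681). Neurod1, the helix-loop-helix factor next in line after Neurog3, gave -0.66 ± 0.10 (adjusted p = 0.000219), and Myt1, a zinc finger partner of Neurog3, gave -0.66 ± 0.10 (adjusted p = 0.00016). Rfx6, needed for islet cell formation, gave -0.64 ± 0.11 (adjusted p = 0.000407).

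General epithelial transcripts moved with these genes. All 8 epithelial markers were lower in the libraries labelled S1pr2 null, beside 13.3% of all genes tested, with a median log2 fold change of -0.52. Their summed count was 17550 to 18440 against 24690 to 27360 in wt. Fewer cells of a type and less RNA per cell cannot be told apart in such tissue. When libraries were scaled to those 8 genes, 2 of the 10 genes were lower, Pax6 at -0.48 (adjusted p = 0.00119) and Fev at -0.40 (adjusted p = 0.00861), and Nkx2-2 was higher at 0.35 (adjusted p = 0.000928), where 2.51% of all genes tested were lower and 68.2% higher. Neurog3 was then at 0.06, Insm1 at 0.10, Isl1 at 0.16 and Pax4 at -0.00042, none of them passing the test. This scaling moved the median of all genes to 0.474, so the values of all 10 genes, Nkx2-2 included, lay below the median gene. Ratios between the genes within a library do not depend on the scaling. The ratio of Neurog3 to Pax6, in TPM, was 60.7 to 70.3 in wt and 88.7 to 99.4 in the libraries labelled S1pr2 null, and that of Pax4 to Pax6 was 4.07 to 5.30 against 6.14 to 6.59. Both pairs of ranges were apart, as were those of Neurog3 to Neurod1, at 11.5 to 13.2 against 13.7 to 15.2. The ratio of Pax4 to Nkx2-2 was apart in the other direction, at 0.239 to 0.268 in wt and 0.182 to 0.223 in the others. Ranges overlapped for Neurog3 to the late gene Isl1, at 8.45 to 9.43 against 8.15 to 8.47, and for Insm1 to Neurog3, at 0.168 to 0.184 against 0.175 to 0.184. Neurog3 made up 51.7% ± 0.516 of the summed TPM of the 10 genes in wt and 51.4% ± 0.637 in the libraries labelled S1pr2 null (SD over 3 libraries).

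**Figure D2:**
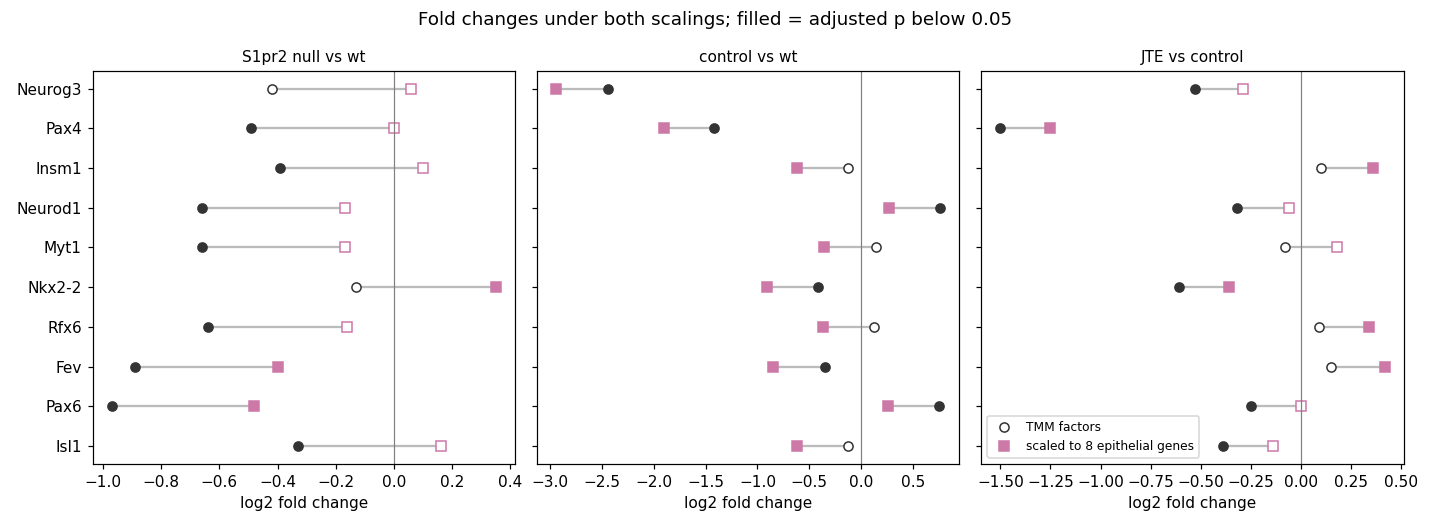
Log2 fold change (horizontal axis) of each gene in 3 comparisons, with TMM factors (circles) and with libraries scaled to 8 epithelial genes (squares), filled where the adjusted p was below 0.05. In S1pr2 null vs wt, Pax6 and Fev stay filled on the lower side and Nkx2-2 becomes filled on the higher side, at 0.35.

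The second comparison set control explants after 2 days of culture against wt pancreata. Culture time and the starting tissue, a dorsal bud against a pancreas, cannot be told apart here. Here 4 genes were lower (Neurog3, Pax4, Nkx2-2 and Fev) and 2 were higher (Neurod1 and Pax6), where 29.3% of all genes tested were lower and 28.5% higher. The genes that islet precursors carry for a short time, Neurog3, Pax4 and Fev, were all on the lower side, with a median of -1.42, and the other 7 had a median of 0.12.

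Neurog3 had 504.3, 451 and 362 normalised counts in the control explants, against 2307 or more in each wt library. Its log2 fold change of -2.44 ± 0.19 (adjusted p = 9.94e-09) was the lowest of the 10 and corresponds to 0.184 of the wt level. Pax4 had 80.7, 70.4 and 90.6 counts in control explants and 212 to 221 in wt (-1.42 ± 0.15, adjusted p = 5.83e-07). Nkx2-2 (-0.42 ± 0.07, adjusted p = 6.4e-05) and Fev (-0.35 ± 0.11, adjusted p = 0.0136) were lower by less, and the Fev call was lost without wt replicate 1 (-0.31), control replicate 2 (-0.29) or control replicate 3 (-0.26). Neurod1 went the other way, from 312, 389 and 338 counts in wt to 596, 618 and 543 in control explants (0.76 ± 0.10, adjusted p = 3.44e-06). Pax6 was higher by a like amount, at 783, 860 and 782 counts (0.75 ± 0.09, adjusted p = 3.69e-06). Groups did not overlap for any of these 6 genes and overlapped for the other 4, a pattern of separation that 33.1% of all genes tested showed on the lower and 30.7% on the higher side. Insm1 (-0.13 ± 0.07), Isl1 (-0.13 ± 0.06), Myt1 (0.14 ± 0.10) and Rfx6 (0.12 ± 0.10) did not pass the test, though Isl1 was called without control replicate 2 (-0.20) and Myt1 without control replicate 3 (0.24).

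The balance within the cascade, which does not depend on the scaling of the libraries, differed between pancreata and explants. Neurog3 held 17.8% ± 1.73 of the summed TPM of the 10 genes in control explants, against 51.7% in wt. Neurod1 took 4.22% ± 0.311 of that sum in wt and 13.4% ± 0.466 in control explants, and Pax6 took 0.81% ± 0.0716 and 2.56% ± 0.189. The ratio of Neurog3 to Neurod1 was 11.5 to 13.2 in wt and 1.18 to 1.5 in control explants. Epithelial markers were higher in the explants (5 of 8, with a median of 0.33), beside 28.5% of all genes tested. Their summed count was 33930 to 39520. Scaled to those 8 genes, Neurog3 was at -2.94 and Neurod1 and Pax6 were still higher, at 0.27 (adjusted p = 0.0194) and 0.26 (adjusted p = 0.0394), while 8 of the 10 genes were lower. That scaling moved the median of all genes to -0.513 and called 64.3% of all genes tested lower and 10.2% higher. With TMM factors hormone genes were higher in 7 of 8, with a median of 2.95, beside 28.5% of all genes. Sst at 4.40 ± 0.15, Ins1 at 3.82 ± 0.26 and Ins2 at 3.55 ± 0.27 led them.

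**Figure D3:**
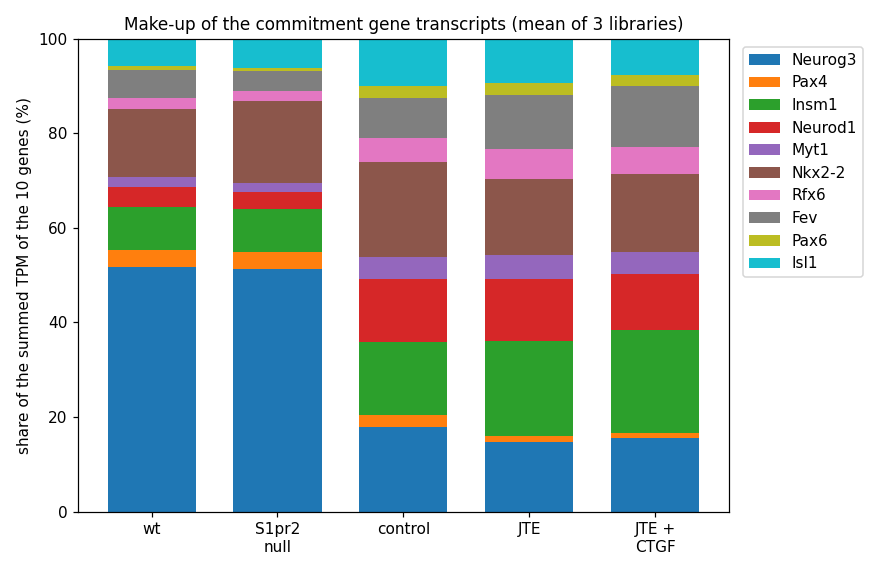
Share of each gene (percent, vertical axis, 0 to 100) in the summed TPM of the 10 genes, as stacked bars of the mean of 3 libraries per group. Neurog3 fills 51.7% of the wt bar and 17.8% of the control bar, and Insm1 takes 20.2% of the JTE bar and 21.8% of the bar for JTE with CTGF.

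The third comparison asked what the S1pr2 antagonist did to explants. JTE explants had 6 of the 10 genes at a lower level than control, where 26.2% of all genes tested were lower, and 0 were higher, where 25.9% were. None of the 10 was higher at an unadjusted p under 0.05 in edgeR or called higher by DESeq2. The median was -0.28, against 0 over all genes tested, and the early (-0.32) and late (-0.25) medians were close. For 5 of the 10 genes every JTE library lay below every control library, as for 28.3% of all genes tested. Fold changes were small: Pax4 alone fell past a fold of 0.6, with a mean count of no more than 100 in both groups.

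Pax4 was the gene with the lowest value. It had 76, 70 and 87 reads in control explants and 35, 24 and 26 in JTE, or 80.7, 70.4 and 90.6 against 37.0, 24.5 and 24.2 normalised counts (log2 fold change -1.50 ± 0.20, adjusted p = 7.57e-06). At these read numbers counting error is a large part of the spread. Nkx2-2 had 953, 879 and 924 counts in control and 643, 643 and 523 in JTE (-0.61 ± 0.07, adjusted p = 3.17e-06). Both groups were apart, and both genes stayed lower when scaled to epithelial genes, at -1.25 (adjusted p = 6.59e-05) and -0.36 (adjusted p = 0.00146). Isl1 had 597, 689 and 609 counts in control and 477, 509 and 457 in JTE (-0.39 ± 0.06, adjusted p = 7.5e-05). Neurod1 (-0.32 ± 0.09, adjusted p = 0.00924) and Pax6 (-0.25 ± 0.09, adjusted p = 0.0324) were lower by less.

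The Neurog3 call was the least stable. Its counts were 504.3, 451 and 362 in control explants and 369, 359 and 190 in JTE, so the groups overlapped, and the log2 fold change of -0.53 ± 0.21 had an adjusted p of 0.0427. Without JTE replicate 3 it was -0.27 (adjusted p = 0.207), DESeq2 gave -0.54 (adjusted p = 0.0869), and dropping single libraries ended the call in 10 of 15 refits. Without that library the adjusted p of Neurod1 (-0.22) was 0.0541 and that of Pax6 (-0.15) was 0.162, leaving 3 genes lower, where 24.9% of all genes tested were lower and 24.0% higher. These were Pax4 (-1.39), Nkx2-2 (-0.51) and Isl1 (-0.36), and the median of the 10 was then -0.18. Pax6 was not called without control replicate 2 (-0.20) or JTE replicate 2 (-0.25) either. Insm1 (0.10 ± 0.07), Fev (0.15 ± 0.11), Rfx6 (0.09 ± 0.10) and Myt1 (-0.08 ± 0.10) did not pass the test, but Fev was called higher without control replicate 1 (0.31, adjusted p = 0.0216). The approximate 95% interval ran from -0.07 to 0.38 for Fev and from -0.04 to 0.25 for Insm1. In TPM, the ratio of Pax4 to Pax6 was 0.831 to 1.18 in control explants and 0.366 to 0.484 in JTE, and that of Pax4 to Nkx2-2 was 0.118 to 0.144 against 0.056 to 0.0847. Both pairs of ranges were apart.

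Epithelial markers moved in both directions with JTE, with a median of -0.05 and summed counts of 24580 to 31090. Of 8, 3 were lower and 1 higher, beside 26.2% and 25.9% of all genes tested. Without JTE replicate 3, 3 were lower and 4 higher (median 0.07), beside 24.9% and 24.0%. Krt8 (-1.06 ± 0.10, and -0.96 without that library) and Krt18 (-0.85 ± 0.11, and -0.70) led the lower ones. The scalings that follow kept that library. Scaled to the 8 genes, Pax4 and Nkx2-2 were the 2 genes lower, and Insm1 (0.36, adjusted p = 0.00186), Fev (0.42, adjusted p = 0.00825) and Rfx6 (0.34, adjusted p = 0.0447) were higher. That scaling moved the median of all genes to 0.259, with 12.6% of them lower and 42.4% higher, so these 3 values lay close to the shift. Without the keratins the scaling gave 5 lower and 0 higher, where 20.8% of all genes tested were lower and 20.5% higher, an alternative chosen after seeing the data. Other cell types also moved: 3 of 3 endothelial markers were lower (median -0.40), as were 3 of 3 macrophage markers (median -0.49), with Csf1r at -3.14 ± 0.16. Without JTE replicate 3 all of these were lower too (medians -0.39 and -0.57), with Csf1r at -3.10. Their part in the result was not tested.

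Explants given CTGF together with JTE013 were compared with the same control libraries, which both antagonist comparisons therefore share. In this group 6 genes were lower and 2 higher than in control, where 33.0% of all genes tested were lower and 28.1% higher. Pax4 had 24.0, 20.6 and 39.1 counts (-1.53 ± 0.20, adjusted p = 5.66e-06) and Nkx2-2 had 637, 638 and 653 (-0.52 ± 0.07, adjusted p = 1.31e-05). Isl1 had 435, 396 and 397 counts (-0.63 ± 0.07, adjusted p = 4.76e-07), below every control library. Neurod1 (-0.43 ± 0.10, adjusted p = 0.000854) and Pax6 (-0.43 ± 0.09, adjusted p = 0.000872) were lower too, as was Myt1 by the edgeR test alone (-0.24 ± 0.10, adjusted p = 0.0448, against 0.0557 in DESeq2). The 2 higher genes were Insm1, with 891, 869 and 977 counts against 818, 802 and 682 (0.25 ± 0.07, adjusted p = 0.00775), and Fev, with 278, 258 and 315 against 267, 203 and 191 (0.37 ± 0.11, adjusted p = 0.0106). Both calls were lost without control replicate 3, at 0.17 for Insm1 and 0.27 for Fev, and that for Fev also without JTE with CTGF replicate 3, at 0.28. Neurog3 ranged widely, at 222, 322 and 439 counts (-0.43 ± 0.21, adjusted p = 0.0911). It was called lower without control replicate 3 (-0.55), JTE replicate 3 (-0.39) or JTE with CTGF replicate 3 (-0.69). In edgeR it was also called with no filter on low counts (-0.39, adjusted p = 0.0215) and when scaled to epithelial genes without the keratins (-0.50, adjusted p = 0.0188). DESeq2 (-0.43, adjusted p = 0.174), the 6 libraries alone (-0.40, adjusted p = 0.106) and scaling to all 8 epithelial genes (-0.28, adjusted p = 0.156) gave no call. Rfx6 was at -0.06 ± 0.11. Leaving out 1 library ended the Myt1 call in 9 of 15 fits, with values of -0.25 to -0.14 in those fits.

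Set against JTE alone, the addition of CTGF left 1 gene different. Isl1 was lower, at 435, 396 and 397 counts against 477, 509 and 457 (-0.23 ± 0.07, adjusted p = 0.0158), where 16.8% of all genes tested were lower. That call was lost without JTE replicate 2 (-0.19), JTE with CTGF replicate 2 (-0.21) or JTE with CTGF replicate 3 (-0.21), and without JTE with CTGF replicate 1 Rfx6 was called lower as well, at -0.28. Of the 10 genes 0 were higher at an adjusted p below 0.05 in edgeR, where 13.6% of all genes tested were. None was higher at an unadjusted p under 0.05 in edgeR or called higher by DESeq2 either. For Pax4 the difference was -0.03 ± 0.24, with an approximate 95% interval from -0.50 to 0.43, and for Neurog3 it was 0.11 ± 0.22, from -0.33 to 0.54. With 3 libraries a group, differences inside these intervals in either direction are not excluded. For Nkx2-2 the span was from -0.06 to 0.24.

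**Figure D4:**
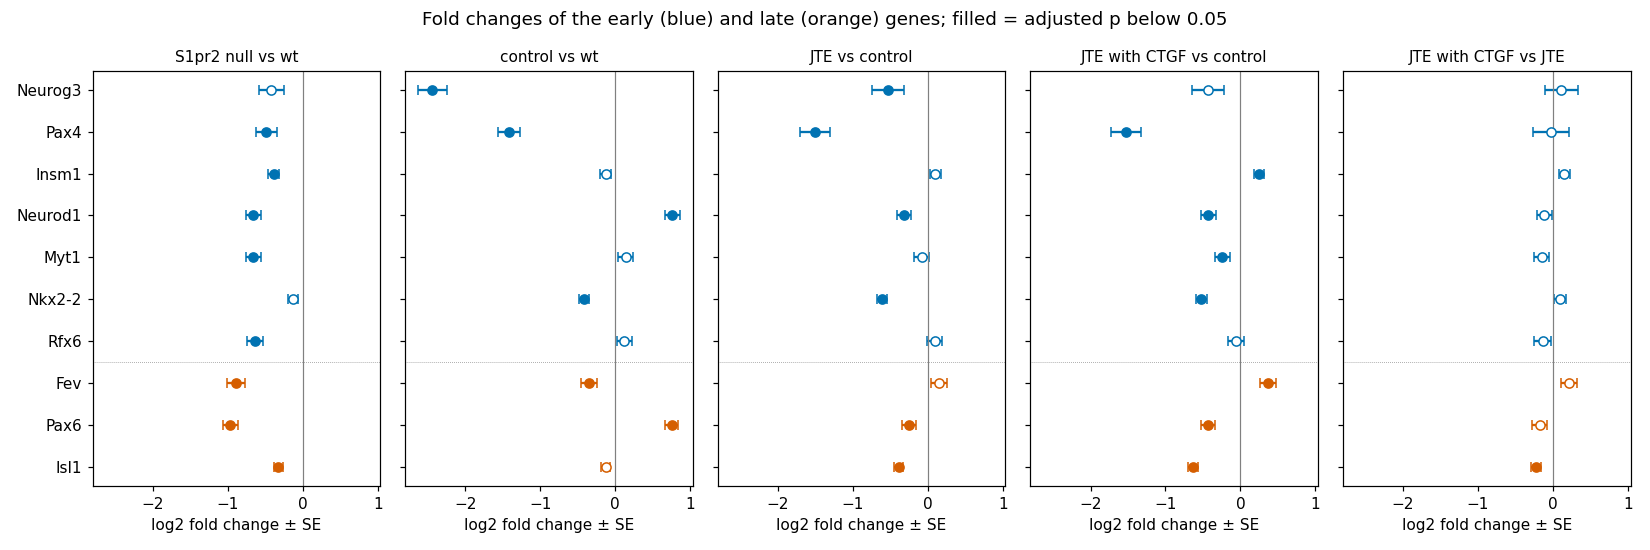
Log2 fold change with its SE (horizontal axis) of the 7 early (blue) and 3 late (orange) genes in 5 comparisons, filled where the adjusted p was below 0.05. Pax6 and Fev lie lowest in S1pr2 null vs wt, Pax4 and Nkx2-2 lie lowest in JTE vs control, and 1 gene, Isl1, is filled in JTE with CTGF vs JTE.

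The response to the antagonist and the difference by genotype label were then set against each other in 1 interaction test. It called 7 of the 10 genes, where 42.9% of all genes tested were called. Pax4 (-1.01 ± 0.24, adjusted p = 0.00299) and Nkx2-2 (-0.47 ± 0.10, adjusted p = 0.00116) were further down with JTE013 than with the null label. Fev (1.04 ± 0.16, adjusted p = 7.92e-05), Pax6 (0.73 ± 0.14, adjusted p = 0.000512), Rfx6 (0.73 ± 0.15, adjusted p = 0.000982), Myt1 (0.57 ± 0.14, adjusted p = 0.00318) and Insm1 (0.49 ± 0.10, adjusted p = 0.00119) were further down with the null label. Neurog3 was at -0.11 ± 0.27, Isl1 at -0.07 ± 0.09 and Neurod1 at 0.34 ± 0.14, and these did not pass, though Neurod1 was called without wt replicate 1 (0.41) or JTE replicate 3 (0.45). Scaled to epithelial genes 4 were called, where 32.3% of all genes tested were: Pax4, Nkx2-2, Fev and Pax6, each in the same direction. The tissues differed as well, pancreata in one response and cultured explants in the other.

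Upstream of Neurog3, 23 progenitor factors and Notch genes were followed. In the libraries labelled S1pr2 null 6 were lower and 4 higher, with a median of -0.05. Rbpj, the DNA-binding partner of Notch, was at -0.93 ± 0.10 and Ptf1a, a factor of acinar progenitors, at -0.89 ± 0.20, while Notch2 was at 0.42 ± 0.06 and the Notch target Hey1 at 0.44 ± 0.11. These counts stand beside 13.3% of all genes tested lower and 12.6% higher. In JTE 6 were lower and 3 higher, beside 26.2% and 25.9% of all genes, so the lower share was near the background and the higher share under it. Without JTE replicate 3, 6 were lower and 4 higher, beside 24.9% and 24.0%. Nkx6-2, a homeobox factor of the trunk epithelium, had 422, 405 and 376 reads in control explants and 15, 14 and 4 in JTE (-5.22 ± 0.27, adjusted p = 1.63e-10, and -4.77 without JTE replicate 3), the lowest value on any list in that comparison. Dll1, the Notch ligand carried by Neurog3-expressing cells, had 491 to 499 normalised counts in control explants and 122 to 203 in JTE (-1.57 ± 0.12, adjusted p = 1.24e-08, and -1.39 without JTE replicate 3), and Ptf1a was higher (0.83 ± 0.18). With CTGF 12 of the 23 were lower than in control and 2 were higher, beside 33.0% and 28.1% of all genes. Onecut1, an early pancreatic factor, was at -1.59 ± 0.13 in JTE with CTGF against JTE, where Hes1, the Notch effector that represses Neurog3, was at 0.44 ± 0.06 (adjusted p = 5.13e-05). Hes1 had 957 to 1023 normalised counts in control explants, 732 to 839 in JTE and 1022 to 1130 in JTE with CTGF. In JTE against control it was at -0.27 ± 0.06 without JTE replicate 3, and in the libraries labelled S1pr2 null it was at 0.18 ± 0.06.

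Other genes known from the Neurog3 stage also moved. Of 16 such genes 9 were lower in JTE and 5 were higher (median -0.52), beside 26.2% and 25.9% of all genes tested. In the libraries labelled S1pr2 null 4 were lower and 3 higher (median -0.12), beside 13.3% and 12.6%. Without JTE replicate 3, 9 were lower and 4 higher in JTE (median -0.36), beside 24.9% and 24.0%. Btbd17 had 136, 133 and 136 reads in control explants and 21, 41 and 26 in JTE (-2.25 ± 0.19, adjusted p = 4.92e-08, and -2.12 without JTE replicate 3). Pak3, a kinase that restrains the cell cycle in precursors, had 552 to 574 normalised counts in control and 135 to 210 in JTE. Its log2 fold change was -1.75 ± 0.11 (adjusted p = 3.3e-09), and -1.61 without JTE replicate 3. Gadd45a, a growth arrest gene, was the highest at 0.95 ± 0.10. In the libraries labelled S1pr2 null Neurod2 was at -1.14 ± 0.27 and Sox4, a factor that acts beside Neurog3, at 0.57 ± 0.06. Of 6 genes of the Fev stage, 2 were lower and 1 higher in JTE, with Cck at -2.06 ± 0.20, shares near those of all genes, and without JTE replicate 3 the counts were 2 and 0. In the libraries labelled S1pr2 null 3 were lower, among them Vwa5b2 at -0.83 ± 0.14, and 2 were higher, Nefm at 0.36 ± 0.10 and Runx1t1 at 0.37 ± 0.08.

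Downstream, 7 of 11 later endocrine factors were lower in the libraries labelled S1pr2 null, and the highest value on the list was 0.07 (median -0.67). Over all genes tested 13.3% were lower there and 12.6% higher. Mafa, an activator of insulin genes, had 44, 83 and 44 reads in wt and 8, 9 and 9 in these libraries (-2.73 ± 0.35, adjusted p = 3.41e-05). In control explants against wt 5 were higher and 2 lower, beside 28.5% and 29.3% of all genes, with Mafa at 2.64 ± 0.21. In JTE against control 4 were lower and 2 higher, shares near the 26.2% and 25.9% of all genes. Mafa was at -1.25 ± 0.19 there (-1.06 without JTE replicate 3) and Irx1 at 0.64 ± 0.11. Hormone genes were lower in 8 of 8 in the libraries labelled S1pr2 null (median -2.39) and in 7 of 8 in JTE (median -0.93), and Sst, at -0.19 ± 0.12, was the one that did not pass. Acinar genes were lower in 5 of 6 in the libraries labelled S1pr2 null (median -1.67), and mesenchymal genes were higher in 5 of 8 and lower in 2 (median 0.77). Without JTE replicate 3 the later factors in JTE gave 4 lower and 2 higher (median -0.29) and the hormones 6 of 8 lower (median -0.86). All genes tested then stood at 24.9% lower and 24.0% higher.

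Across the 15 libraries, genes were ranked by how closely their log2 counts followed Neurog3, as a description only, since these libraries share 5 groups and a step between pancreata and explants. The 5 genes outside the cascade with the highest Pearson r were Thbd (0.982), Pbk (0.981), Ttyh1 (0.979), Dtymk (0.978) and Syce2 (0.977). Pbk is a mitotic kinase and Dtymk makes thymidine nucleotides. Like Neurog3 all 5 were lower in control explants than in wt, from -0.64 ± 0.05 for Dtymk to -2.67 ± 0.11 for Ttyh1. Of these, Dtymk alone was called lower in the libraries labelled S1pr2 null, at -0.17 ± 0.05. Within the cascade Neurog3 was most like Pax4 (0.929) and least like Neurod1 (-0.692), Neurod1 was most like Pax6 (0.978), Nkx2-2 most like Pax4 (0.972) and Insm1 most like Fev (0.897).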

How the data were processed

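Poly(A) RNA of 15 libraries was sequenced as single-end reads. The authors aligned reads to mm10 with GSNAP, counted uniquely aligned reads per Ensembl gene with featureCounts 1.4.6 and deposited the raw count per gene, neither normalised nor pooled. Reads that match several genes equally well are lost in this way. All 15 columns were mapped to samples by their titles. Gene symbols came from GENCODE M21 and matched 24750 of 25292 IDs (97.9%).

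Total counts were 11402804 to 13828737 per library. Counts were tested in R 4.3.3 by quasi-likelihood in edgeR 4.0.16 (TMM factors, filterByExpr, 1 coefficient per group, no covariate). All 15 libraries entered 1 fit, and p-values were adjusted by Benjamini-Hochberg over 16245 genes. Calls were made at an adjusted p below 0.05, and the biological coefficient of variation was 7.3%. Replicates were separate pools by the methods of the study, and no batch is labelled. Normalised counts are reads corrected for each library's effective size, scaled to an average library. TPM used the deposited exon lengths.

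The 10 genes and all other gene lists were chosen with earlier results of these data known, by role, and lists were described by counts and medians only. Named list genes were the 3 with the largest change in each direction among those called, or fewer. Likeness was the Pearson r of log2 CPM (prior count 2) among genes with a mean normalised count of at least 100. Alternatives were RLE factors, library totals, totals without the 100 most abundant genes, scaling to 8 epithelial genes, DESeq2 1.42.0, no filter, the 6 libraries of a comparison, a replicate block, the criterion of the study and leaving out each library. The scripts were tested on simulated data. Figures were drawn with matplotlib 3.10.9 in Python 3.11.15.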

Additional observations from a re-analysis of the deposited data

Results flagged for a closer look

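For 7 of the 10 genes the response to JTE013 in explants differed from the difference between libraries labelled S1pr2 null and wt, by the interaction test of edgeR. The same test called 42.9% of all genes tested. The values are the first response minus the second, on the log2 scale. They were -1.01 for Pax4 and -0.47 for Nkx2-2, and 1.04 for Fev, 0.73 for Pax6, 0.73 for Rfx6, 0.57 for Myt1 and 0.49 for Insm1. With libraries scaled to epithelial genes Rfx6, Myt1 and Insm1 no longer passed, where 32.3% of all genes tested were called.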

How the results depend on the processing

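Of 1430 recomputed values of single genes, 1305 kept direction and side of the threshold, 66 lost a call, 30 gained one and 29 changed sign, and the cause was not tested. Scaling to epithelial genes gave 2 lower and 1 higher in S1pr2 null vs wt, 8 lower in control vs wt, 2 lower and 3 higher in JTE vs control and 4 interaction calls. Without Krt8 and Krt18, added after seeing the data, it gave 2 lower and 1 higher in S1pr2 null vs wt. Of all 16245 genes tested, 452 were lower and 10728 higher there. The same scaling gave 1 higher in JTE with CTGF vs control, where 3059 of all genes were higher. Signs changed under these 2 scalings in S1pr2 null vs wt for Neurog3 (0.06 and 0.03), Insm1 (0.10 and 0.06), Nkx2-2 (0.35 and 0.32) and Isl1 (0.16 and 0.12), and in control vs wt for Myt1 (-0.36 and -0.14) and Rfx6 (-0.37 and -0.15). With all 8 genes they also changed for Myt1 (0.18) and Pax6 (0.0022) in JTE vs control, Rfx6 (0.10) in JTE with CTGF vs control and Nkx2-2 (-0.01) in JTE with CTGF vs JTE, and without the keratins for the Neurod1 interaction (-0.09). Library totals put Myt1 at -0.01 and Rfx6 at -0.02 in control vs wt. The criterion of the study left 2 lower in S1pr2 null vs wt, 2 lower and 2 higher in control vs wt, 0 lower in JTE vs control, 0 lower and 0 higher in JTE with CTGF vs control and 0 lower in JTE with CTGF vs JTE, where no filter on low counts and a fit to 6 libraries gave 0 lower as well.

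Leaving out 1 library gave 7 to 9 lower in S1pr2 null vs wt, 3 to 4 lower and 2 to 3 higher in control vs wt, 3 to 6 lower and 0 to 1 higher in JTE vs control, 5 to 7 lower and 0 to 2 higher in JTE with CTGF vs control, 0 to 2 lower in JTE with CTGF vs JTE and 7 to 8 interaction calls. These ranges describe how far the counts moved, and shares of all genes were not set beside them here. Signs changed for Myt1 in JTE vs control (-0.18 to 0.02, above 0 without control replicate 2) and for Rfx6 in JTE with CTGF vs control (-0.19 to 0.01, above 0 without control replicate 2 or JTE with CTGF replicate 2). In JTE with CTGF vs JTE they changed for Neurog3 (-0.12 without JTE replicate 3, -0.16 without JTE with CTGF replicate 3) and Pax4 (-0.35 to 0.19, with 0.19 without JTE replicate 1, 0.07 and 0.15 without JTE with CTGF replicates 1 and 2). The Neurog3 interaction (-0.26 to 0.16) changed sign without control replicate 1 (0.003) or JTE replicate 3 (0.16).

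For libraries of equal replicate number the correlations of their deviations ran from -0.097 to 0.248. The highest, 0.148 and 0.248, were replicates 2 and 3 of JTE vs control. Unequal numbers were not set beside them, so whether replicates were paired was not tested. With the replicate block, 8 genes were lower in S1pr2 null vs wt, 4 lower and 2 higher in control vs wt, 5 lower in JTE vs control, 5 lower and 2 higher in JTE with CTGF vs control, 1 lower in JTE with CTGF vs JTE and 7 called by the interaction. Of all 16245 genes, the block called 2097 lower in S1pr2 null vs wt and 4687 lower and 4569 higher in control vs wt. It called 4205 lower in JTE vs control, and 5294 lower and 4522 higher in JTE with CTGF vs control. In JTE with CTGF vs JTE 2656 were lower, and the interaction called 6860. Counting error limits Pax4 most, with 18 to 35 reads in the antagonist libraries.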
